A study of Mus musculus with 14 samples.

Results

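Chromatin accessibility was examined at 9 genes for chemokine receptors that direct T cells into tissues, Ccr4, Ccr6, Ccr8, Ccr9, Ccr10, Cxcr3, Cxcr4, Cxcr5 and Cxcr6, in Treg cells of spleen and lymph nodes. A window of the ATAC-seq count table was counted as belonging to a receptor gene when the start site of that gene was the nearest protein-coding start site to its centre and lay within 100 kb. By this rule 211 of the 240778 windows belonged to the 9 genes, of 201042 windows assigned to any of 15878 genes. Cxcr4 had 44 windows, Cxcr5 42, Ccr6 34, Ccr4 28, Ccr8 23, Cxcr6 20, Ccr9 14, Cxcr3 4 and Ccr10 2. ATAC-seq reads out open chromatin by the insertion of sequencing adapters by a transposase, and each window was 201 bp wide and placed by the authors at a peak summit.

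All mice were adult and carried the Foxp3-AID allele, in which an auxin-inducible degron is attached to Foxp3 and ZsGreen and Cre recombinase are co-expressed, and all received 5-ph-IAA. Mice of genotype Foxp3-AID ROSA26-TIR1(F74G), called TIR1 mice here, also carried the plant E3 ligase subunit TIR1(F74G) with an mCherry reporter behind a loxP-flanked STOP cassette, so that Cre expressed from Foxp3 restricts it to Treg cells and the ligand leads to degradation of the Foxp3 fusion protein. Mice of genotype Foxp3-AID ROSA26-WT, called WT mice, lacked TIR1 and kept the fusion protein. There were 4 TIR1 and 4 WT mice after 3 days of ligand and 3 TIR1 and 3 WT mice after 7 days, 14 libraries in all. The labels name only the Foxp3-AID allele. By the study's text, its accessibility experiments used heterozygous females, in which the Foxp3 gene on one X chromosome is unfused, so that random X inactivation leaves Treg cells with the unfused protein beside those with the fusion, and sorting on ZsGreen takes the latter. No mouse in these libraries went without ligand, and no group is labelled as cells with the unfused allele, so effects of the fusion or of 5-ph-IAA shared by both genotypes could not be measured. In the study's sorts, Treg cells were gated on ZsGreen in WT mice and additionally on mCherry in TIR1 mice, so the gate and the genotype cannot be told apart. The study describes accessibility in resting and in activated Treg cells on day 7, whereas the labels give no activation state for any library, so a difference in activation between libraries could not be taken into account.

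Chemokine receptors span the cell membrane and couple to inhibitory G proteins, through which a chemokine gradient steers cell migration. Treg cells acquire different receptors as they leave lymphoid tissue. Ccr4 binds Ccl17 and Ccl22, Ccr8 binds Ccl1 and Ccr10 binds Ccl27 and Ccl28, and these receptors are associated with entry into skin. Ccr9, the receptor for Ccl25, guides cells to the small intestine, and Ccr6, the receptor for Ccl20, guides them to mucosal surfaces. Cxcr3, the receptor for the interferon-induced Cxcl9 and Cxcl10, and Cxcr6, the receptor for Cxcl16, mark cells that enter inflamed tissue and liver. Cxcr4 holds cells in bone marrow through Cxcl12, and Cxcr5 draws them into B cell follicles through Cxcl13, which is a feature of follicular regulatory T cells.

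Windows lay on RefSeq promoters of 7 of these genes, which are shown because accessibility was measured on them. No RefSeq promoter entry was at hand for Ccr10 and Cxcr5, so none is shown, although Cxcr5 had 11 windows within 1 kb of its start site. The sequences run 5′ to 3′ from 250 to 51 bases before the start site (for Cxcr3 from 250 to 131), and capitals mark bases inside a deposited window, to within 1 base. They are from the RefSeq promoter table on GRCm38.p6, at Cxcr4 chr1:128592350-128592549 (minus strand), Ccr4 chr9:114496595-114496794 (minus strand), Ccr8 chr9:120091883-120092082 (plus strand), Ccr9 chr9:123766961-123767160 (plus strand), Cxcr6 chr9:123806227-123806426 (plus strand), Ccr6 chr17:8242276-8242475 (plus strand) and Cxcr3 chrX:101734278-101734397 (minus strand). Those of Ccr4 and Ccr6 belong to start sites inside the gene, downstream of its outermost one.
Cxcr4: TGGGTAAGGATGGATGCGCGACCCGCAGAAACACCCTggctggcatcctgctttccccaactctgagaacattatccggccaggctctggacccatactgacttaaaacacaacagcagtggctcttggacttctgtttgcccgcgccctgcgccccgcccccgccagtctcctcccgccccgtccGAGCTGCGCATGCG
Ccr4: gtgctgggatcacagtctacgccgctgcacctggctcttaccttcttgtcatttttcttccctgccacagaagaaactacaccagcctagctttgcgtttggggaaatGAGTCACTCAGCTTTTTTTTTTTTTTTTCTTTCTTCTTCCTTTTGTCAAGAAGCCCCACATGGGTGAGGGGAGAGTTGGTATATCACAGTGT
Ccr8: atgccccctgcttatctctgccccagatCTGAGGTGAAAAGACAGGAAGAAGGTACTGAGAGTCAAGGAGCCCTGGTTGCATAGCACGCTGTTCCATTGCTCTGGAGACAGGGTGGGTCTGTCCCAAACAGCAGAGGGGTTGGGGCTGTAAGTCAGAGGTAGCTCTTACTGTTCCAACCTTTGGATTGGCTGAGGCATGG
Ccr9: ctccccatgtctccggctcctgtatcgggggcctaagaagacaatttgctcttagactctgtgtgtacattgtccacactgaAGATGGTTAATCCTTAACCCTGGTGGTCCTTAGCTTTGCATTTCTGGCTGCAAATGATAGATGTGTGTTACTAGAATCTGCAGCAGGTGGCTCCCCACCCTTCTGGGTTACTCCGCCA
Cxcr6: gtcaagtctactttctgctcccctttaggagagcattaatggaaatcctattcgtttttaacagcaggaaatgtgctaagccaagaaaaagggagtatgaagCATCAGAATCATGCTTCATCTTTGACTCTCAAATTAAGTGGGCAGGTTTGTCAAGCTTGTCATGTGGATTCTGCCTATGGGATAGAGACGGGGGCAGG
Ccr6: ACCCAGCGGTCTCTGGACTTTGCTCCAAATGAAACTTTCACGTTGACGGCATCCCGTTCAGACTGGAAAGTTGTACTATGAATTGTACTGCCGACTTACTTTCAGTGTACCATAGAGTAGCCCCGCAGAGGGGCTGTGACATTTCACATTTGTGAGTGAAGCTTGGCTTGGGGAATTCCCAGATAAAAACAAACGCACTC
Cxcr3: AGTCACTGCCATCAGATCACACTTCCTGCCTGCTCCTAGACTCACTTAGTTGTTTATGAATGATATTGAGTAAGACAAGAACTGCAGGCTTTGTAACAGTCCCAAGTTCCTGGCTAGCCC

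The Cxcr4 promoter was the richest in G and C among them, with 59.3% over the 300 bases from 250 before to 50 after the start site, against a median of 52.7% over all 32851 promoters of that length. 5 short motifs were searched on both strands of those 300 bases in 8 promoter entries of the receptor genes, and a match is a string of letters only. The entries included the outermost and an internal start site of Ccr6, and none was of Ccr10 or Cxcr5. TGTTTAC, a forkhead motif, was in 0 of the 8, against 3.65% of all promoters. TGTGGT, a Runx motif, was in those of Cxcr3, Cxcr6 and the outermost start site of Ccr6, whose promoter held no window and is not printed, against 16.8% of all promoters. TGANTCA, an AP-1 motif, was in that of Ccr4, where it begins 143 bases before the start site, against 7.81% of all. AGATAAG, the motif of GATA factors, was in that of Ccr8, against 3.04%, and AGGTGTGA, a T-box motif, was in 0 of the 8, against 1.28%. No match overlapped a match of another of these motifs.

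Counts in windows ranged from 5653289 to 20184487 per library, with TIR1 replicate 1 on day 3 and WT replicate 3 on day 7 (6348754) the lowest. Counts are scaled here to CPM, counts relative to the library total with TMM factors. For single windows the total is that of all windows, and for whole loci, given as the sum or mean of the windows that do not overlap, it is that of windows assigned to genes. Of the Treg cell markers, the most accessible windows of Foxp3, Il2ra, Ctla4, Ikzf2 and Tnfrsf18 had mean CPM values of 8.92, 21.0, 15.2, 20.9 and 26.8. Ms4a1 and Csf1r, markers of B cells and myeloid cells, had no window, while Ebf1, Cr2, Cd8b1 and Klrb1c had windows of up to 11.1, 6.55, 12.5 and 42.3 CPM. In bulk libraries a smaller share of cells with an open site and a less open site in every cell cannot be told apart.

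The receptor loci differed widely in accessibility, and Cxcr4 stood above the others. Per non-overlapping window, Cxcr4 had a mean of 11.5 CPM over the 14 libraries, Cxcr5 4.99, Ccr8 3.31, Ccr4 2.88, Ccr9 2.77, Ccr6 2.55, Ccr10 2.55, Cxcr6 2.41 and Cxcr3 1.76. Cxcr4 was above Cxcr5, and Cxcr5 above Ccr8, in 14 of 14 libraries without overlap of their ranges. Ccr8 was above Ccr4 in 14 of 14 libraries, although the ranges over libraries overlapped. From Ccr4 to Cxcr6, neighbours in this order did not differ beyond their spread, since the higher one was above the lower in only 7 to 9 of 14 libraries. Cxcr3 was below Cxcr6 in 13 of 14. This order describes the peaks the authors called at each gene, and a gene with few called peaks is represented by few windows.

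**Figure D1:**
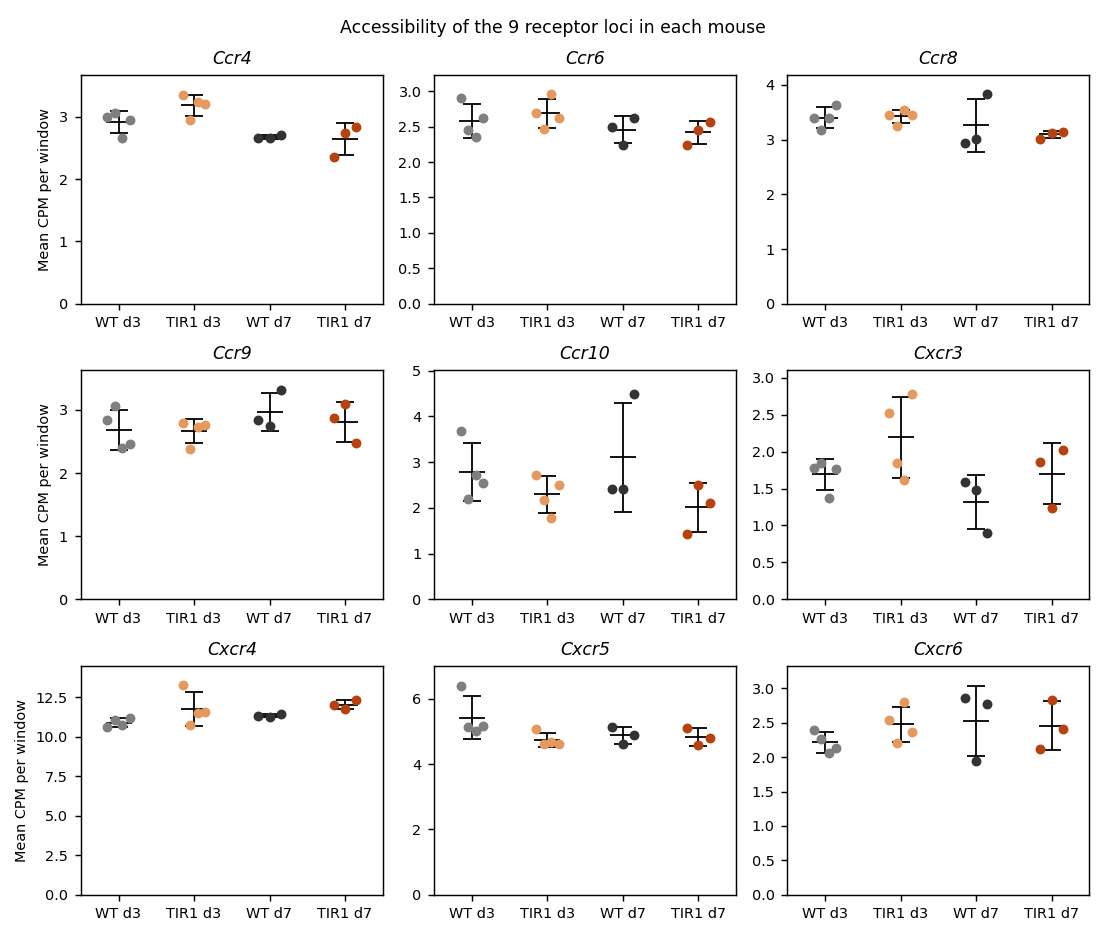
Mean CPM per non-overlapping window (y axis) of each receptor locus in the 4 groups (x axis), with 1 point per mouse, and bars for the mean and SD of each group. Cxcr4 lies between 10.6 and 13.3 in every mouse and Cxcr3 between 0.904 and 2.78, and the genotypes overlap on both days at every locus except Cxcr4 on day 7.

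The loci also differed in where their open chromatin lay. Cxcr4 is isolated, with the next protein-coding start site (Dars) 174883 bp away, and it accounted for 54.8% of the summed accessibility of the 9 loci (49.5 to 57.5% over libraries). Its most accessible window, chr1:128614906-128615107 (GRCm38), lay 22.7 kb upstream between genes, with 48.6 ± 3.56 CPM (SD, n = 14), above 99.5% of all windows. The promoter window of Cxcr4 (chr1:128592162-128592363, 0.0365 kb from the start site) had 30.7 ± 3.45 CPM, above 98.3% of windows. Of the 12 receptor windows above the 90th percentile of all windows, 10 belonged to Cxcr4 and 2 to Cxcr5. For comparison, the median of all windows was 1.80 CPM and their 90th percentile 8.97 CPM.

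Cxcr5 was the only other receptor gene with windows in that range. Its most accessible window, chr9:44533183-44533384, lay 6.84 kb upstream between genes and had 14.8 ± 2.17 CPM (n = 14). Its promoter window, chr9:44526551-44526752, had 5.63 ± 1.24 CPM, and the highest of its 7 windows further inside the gene, 10.8 kb downstream and named after its values were seen, had 11.1 CPM. Another 6 Cxcr5 windows lay inside Bcl9l, a coactivator of Wnt signalling, and distance alone tied them to Cxcr5.

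The skin-associated receptors had moderate accessibility at their most accessible windows. Below the median of all windows lay 22 of the 28 Ccr4 windows, 12 of the 23 Ccr8 windows and 1 of the 2 Ccr10 windows. Ccr4 had no window within 1 kb of its outermost start site, and its most accessible window, chr9:114496485-114496686 with 6.40 ± 1.03 CPM, lay inside the gene 8.89 kb downstream, over the internal start site whose promoter is printed above. Ccr8 had 3.90 ± 0.80 CPM at its promoter (chr9:120091911-120092112) and 4.22 ± 0.73 CPM in its most accessible window, chr9:120095957-120096158, 3.92 kb downstream. Ccr10 had 2 windows, both inside other genes, of which the one in Cntnap1 (chr11:101176991-101177192, 1.65 kb upstream) had 2.65 ± 0.62 CPM and the one in Ezh1 1.17 CPM.

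Among the mucosal receptors, Ccr9 had 2.38 ± 0.57 CPM at its promoter (chr9:123767043-123767244) and 2.78 ± 0.48 CPM in its most accessible window, chr9:123769722-123769923, in the gene. Ccr6 had no window within 1 kb of its outermost start site, and its most accessible window (chr17:8233707-8233908, 2.23 kb upstream) had 3.27 ± 0.71 CPM. Of the receptors of inflamed tissue, Cxcr6 had its most accessible window at the promoter (chr9:123806329-123806530, 3.70 ± 0.92 CPM). Cxcr6 lies inside Fyco1, a gene of autophagosome transport, and 16 of its 20 windows were inside that gene. Cxcr3 had only promoter windows, 4 in all, of which the most accessible (chrX:101733982-101734183) had 1.97 ± 0.60 CPM, near the median of all windows.

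**Figure D2:**
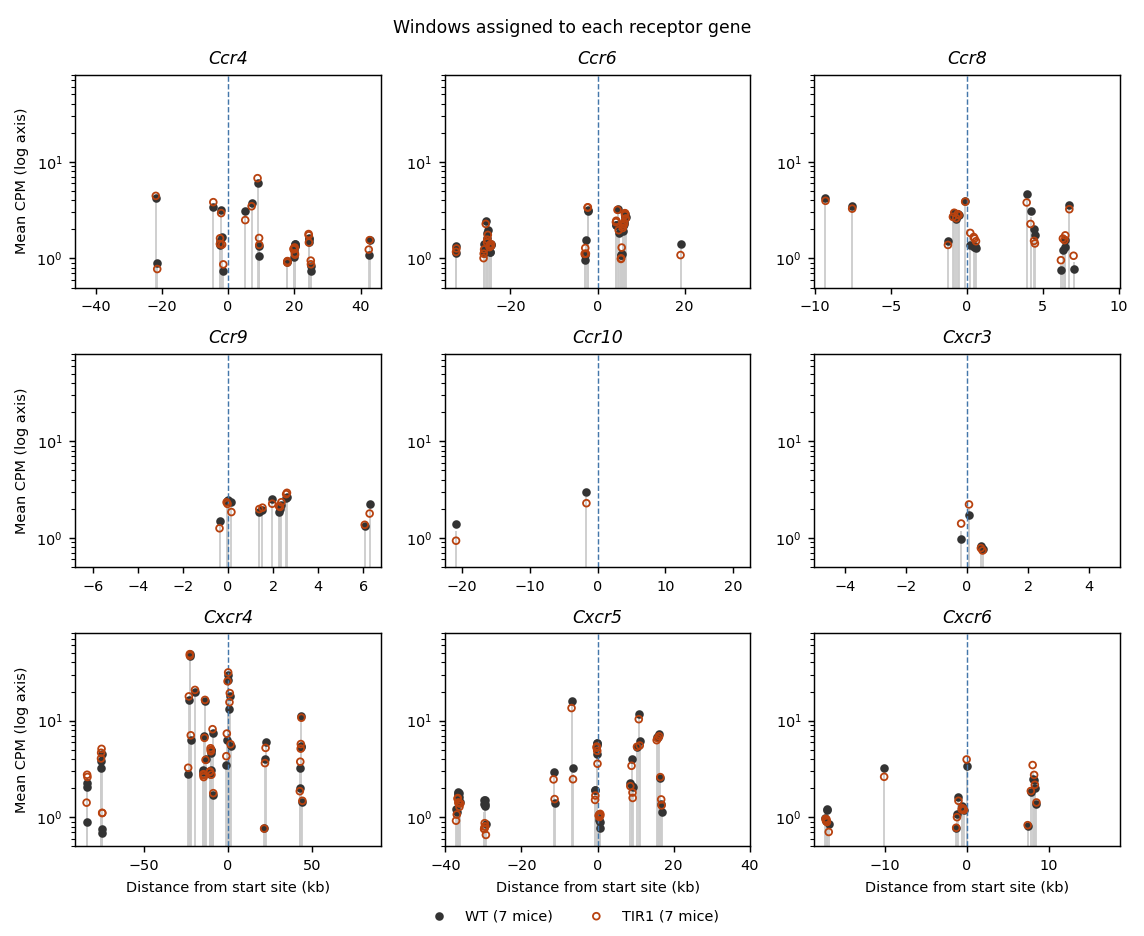
Mean CPM of each window (y axis, log scale) against the distance of its centre from the outermost start site (x axis, kb, negative upstream), for 7 WT (filled) and 7 TIR1 (open) mice. Cxcr4 windows reach 48.6 CPM at 22.7 kb upstream, Cxcr5 reaches 14.8 CPM at 6.84 kb upstream, and open and filled points lie close together at the most accessible windows.

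The first comparison asked whether loss of Foxp3 protein alters accessibility at these receptor genes. With the quasi-likelihood test of edgeR and p-values adjusted by the Benjamini-Hochberg method (threshold 0.05), 0 of the 211 receptor windows differed between TIR1 and WT mice on day 7, 0 of 210 tested differed on day 3, and 0 of 211 differed when the days were combined with a term for day. Of all windows tested, 0.00463% were called on day 7, 0.0% on day 3 and 0.0112% for the combined days. DESeq2 also called 0 of the receptor windows in each comparison, though over both days its independent filtering left 198 of the 211 without an adjusted p. The smallest adjusted p of any receptor window was 0.645 on day 7, 0.500 on day 3 and 0.443 for the combined days.

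At an unadjusted p under 0.05 there were 16 receptor windows on day 7 (7.58%, against 5.95% of all windows), 15 on day 3 (7.14%, against 7.55%) and 16 over both days (7.58%, against 6.73%). Many of these windows overlapped one another, so that the 16 over both days lay in 12 regions. DESeq2 gave 7, 8 and 14 such windows. TIR1 and WT mice did not overlap in 20 receptor windows on day 7, 9.48% against 11.8% of all windows, and in 13 on day 3, 6.16% against 4.09%. With the mice of both days pooled they did not overlap in 1, 0.474% against 0.116%.

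Taking each locus as the sum of its non-overlapping windows, 0 of the 9 genes differed between genotypes on day 7, 0 on day 3 and 0 with the days combined, where 0.0%, 0.139% and 0.0693% of all genes were called. At an unadjusted p under 0.05 there were 0 on day 7, 1 on day 3 (Cxcr5) and 3 with the days combined (Ccr10, Cxcr4 and Cxcr5), against 7.67%, 16.9% and 14% of all genes. DESeq2 called 0 genes in each, with 2 of the 9 left without an adjusted p when the days were combined, and gave 0, 1 and 3 at an unadjusted p under 0.05. The groups did not overlap at 1 of 9 loci on day 7 (14.8% of all genes), at 0 on day 3 (7.93%) and at 0 in the pooled mice of both days (0.346%). The median log2 fold change of the 9 genes, TIR1 against WT, was -0.02 on day 7, 0.05 on day 3 and 0.03 for the combined days, beside medians of 0.00 over all genes.

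**Figure D3:**
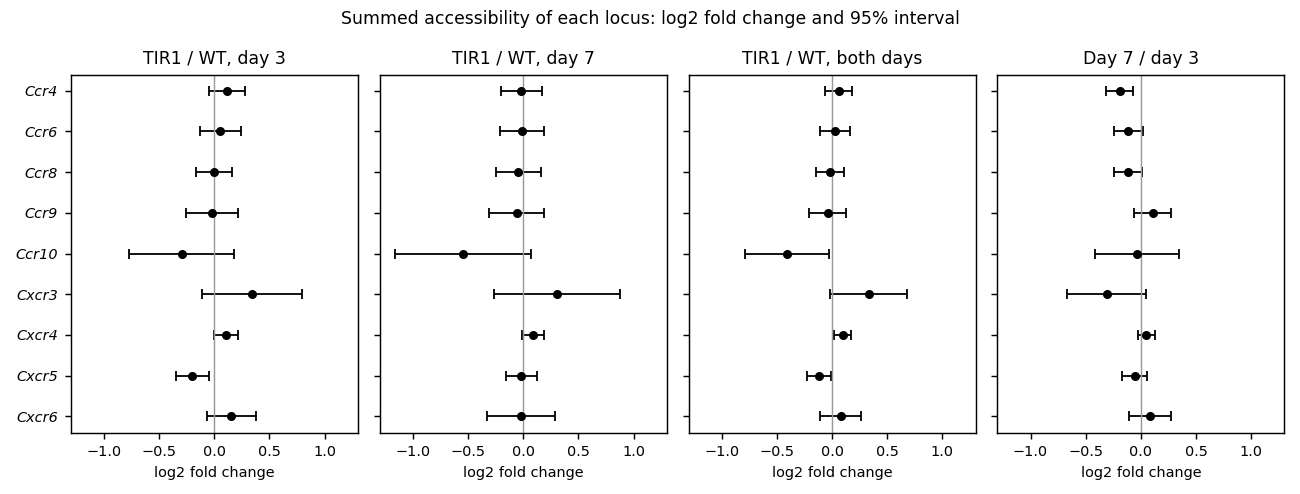
Log2 fold change of the summed accessibility of each receptor locus with its 95% interval from the edgeR fit (x axis), for TIR1 against WT on each day and for the days combined, and for day 7 against day 3. Estimates lie between -0.54 (Ccr10, day 7) and 0.34 (Cxcr3, day 3), the intervals of Ccr10 and Cxcr3 are the widest, and no locus passed adjustment.

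Cxcr4, the bone marrow receptor, was the 1 locus at which the groups did not overlap on day 7. Its summed accessibility was 396, 394 and 401 CPM in the WT mice and 421, 411 and 432 in the TIR1 mice on day 7, a log2 fold change of 0.09 (95% interval -0.01 to 0.19, adjusted p = 0.666 from edgeR). On day 3 it was 371, 387, 377 and 391 CPM in WT mice and 465, 375, 403 and 404 in TIR1 mice, where replicate 1 of the TIR1 mice, the library with the lowest count, was far above the rest and the groups overlapped. On day 3 the log2 fold change was 0.10 (adjusted p = 0.320), or 0.04 without that library (adjusted p = 0.653). Over both days it was 0.10 (SE 0.04, interval 0.02 to 0.17, adjusted p = 0.248).

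The most accessible upstream window and the promoter window of Cxcr4 showed little difference between genotypes. At the 22.7 kb upstream window, CPM values on day 7 were 52.1, 50.8 and 45.3 in WT and 47.5, 48.9 and 49.7 in TIR1 mice, and over both days the log2 fold change was 0.00 (interval -0.15 to 0.16, edgeR adjusted p = 0.998). At the promoter, day 7 values were 33.3, 31.7 and 26.8 in WT and 35.0, 31.9 and 36.9 in TIR1 mice, and over both days the log2 fold change was 0.07 (interval -0.10 to 0.24, adjusted p = 0.932). The smallest p for genotype among the Cxcr4 windows belonged to a weak one 83.9 kb upstream, chr1:128676086-128676287. It had 1.04, 0.860, 1.16 and 0.708 CPM in WT and 2.34, 0.697, 1.49 and 1.85 in TIR1 mice on day 3, and 0.581, 0.582 and 1.35 against 1.34, 1.01 and 1.21 on day 7. The groups overlapped on both days, and the log2 fold change over both days was 0.66 (SE 0.27, edgeR adjusted p = 0.645). Of the 44 Cxcr4 windows (35 when overlapping ones are left out), 30 had a higher and 14 a lower estimate in TIR1 mice over both days. Of all 211 receptor windows, 107 were higher and 104 lower.

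Cxcr5, the follicle receptor, had estimates of the opposite sign. Its summed accessibility on day 3 was 160.1, 128, 125 and 129 CPM in WT mice and 127, 115, 117 and 115 in TIR1 mice, so that the groups overlapped through 1 TIR1 mouse and replicate 1 of the WT mice was far above the others. This is a log2 fold change of -0.20 (SE 0.07, interval -0.35 to -0.05, edgeR adjusted p = 0.178). Without WT replicate 1 it was -0.11 (adjusted p = 0.463). On day 7 the values were 129, 116 and 123 CPM in WT and 128, 114 and 119.7 in TIR1 mice, which overlapped throughout, with a log2 fold change of -0.02 (interval -0.16 to 0.13, adjusted p = 0.967).

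Over both days the Cxcr5 locus had a log2 fold change of -0.12 (SE 0.05, adjusted p = 0.323), which was -0.07 without WT replicate 1 of day 3 and between -0.15 and -0.10 without any other library. Of its 42 windows (25 when overlapping ones are left out), 33 had a lower estimate in TIR1 mice over both days. Of all 211 receptor windows, 104 did, and the median log2 fold change over all windows was 0.003. On day 3 alone 33 of the 42 were lower, and on day 7 25 were lower and 17 higher. The difference between the days at the Cxcr5 locus, tested as an interaction, was 0.18 (interval -0.03 to 0.39, adjusted p = 0.555 from edgeR). T cell markers (Cd3e, Cd3g and Cd4, 3 of 4 with windows) summed to 142 to 160.0 CPM in WT and 139 to 144 CPM in TIR1 mice on day 3, while B cell markers (6 of 8 with windows), a cell type in which Cxcr5 is also used, summed to 119.98 to 124 and 115 to 139 CPM. Their part in the Cxcr5 values was not tested.

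At the strongest Cxcr5 window, 6.84 kb upstream, WT mice had 19.998, 15.9, 15.6 and 17.0 CPM on day 3 and TIR1 mice 15.3, 13.2, 13.3 and 12.5, without overlap. Day 7 values were 16.0, 15.6 and 13.0 in WT and 11.6, 15.1 and 13.7 in TIR1 mice, which overlapped. The log2 fold change over both days was -0.27 (interval -0.46 to -0.08, edgeR adjusted p = 0.575). Its promoter window had a log2 fold change of -0.13 over both days (interval -0.39 to 0.14, adjusted p = 0.919).

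The smallest p of all 211 windows for genotype over both days lay in a weak region 29.5 to 29.8 kb upstream of Cxcr5, between genes, in which 5 overlapping windows (chr9:44555888-44556348) shared reads and had log2 fold changes from -0.89 to -0.60. The window with the smallest p, chr9:44556114-44556315, had 2.25, 1.32, 0.956 and 1.06 CPM in WT and 0.719, 0.805, 1.19 and 0.483 in TIR1 mice on day 3. On day 7 it had 1.49, 1.05 and 2.40 CPM in WT and 0.856, 0.536 and 0.759 in TIR1 mice, so the groups overlapped on day 3 and not on day 7. The log2 fold change over both days was -0.89 (SE 0.27, interval -1.43 to -0.35, adjusted p = 0.443 from edgeR).

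The single receptor window in which no TIR1 mouse overlapped a WT mouse over both days, named here after its values were seen, was in this region at chr9:44556002-44556203. It ranged from 1.16 to 2.08 CPM with a median of 1.42 in 7 WT mice and from 0.715 to 1.13 with a median of 0.805 in 7 TIR1 mice. The window rested on 4 to 26 counts per library, and its log2 fold change was -0.77 (SE 0.24, edgeR adjusted p = 0.455).

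**Figure D4:**
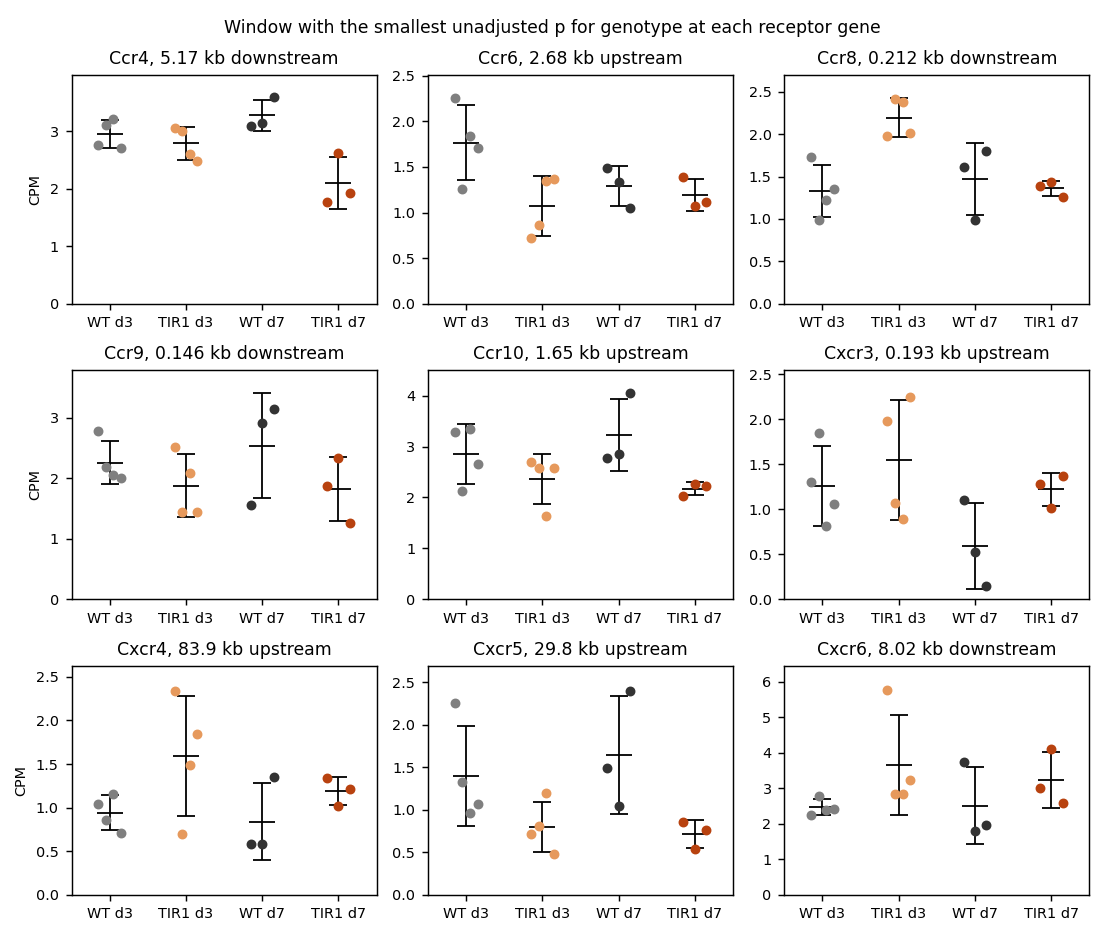
CPM of the window with the smallest unadjusted p for genotype over both days at each receptor gene (y axis), in the 4 groups (x axis), with 1 point per mouse and bars for mean and SD. These windows were picked for their p, none passed adjustment, and most lie at 1 to 4 CPM, where the mice of a group spread widely.

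None of the skin-associated receptors passed the test between genotypes. Ccr4 summed to 53.9, 55.0, 47.9 and 53.0 CPM in WT and 60.3, 52.9, 58.2 and 57.5 in TIR1 mice on day 3, and to 47.8, 48.0 and 48.8 in WT and 42.2, 49.4 and 51.1 in TIR1 mice on day 7. Its log2 fold change over both days was 0.06 (interval -0.06 to 0.18, edgeR adjusted p = 0.678), or 0.03 without WT replicate 3 of day 3 and 0.10 without TIR1 replicate 1 of day 7, and that of its most accessible window, at the internal start site, was 0.15 (interval -0.09 to 0.39, adjusted p = 0.881). The window of Ccr4 with the smallest p, chr9:114500206-114500407 in the gene, had 3.10, 3.14 and 3.60 CPM in WT and 1.76, 2.62 and 1.92 in TIR1 mice on day 7, without overlap, and a log2 fold change of -0.32 over both days (SE 0.16, adjusted p = 0.734).

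Ccr8, a receptor of Treg cells in skin and tumours, ranged from 47.7 to 54.6 CPM in WT and from 48.8 to 53.0 in TIR1 mice on day 3. On day 7 it had 44.2, 45.1 and 57.4 CPM in WT and 45.3, 46.8 and 47.2 in TIR1 mice. The ranges overlapped on both days, and the log2 fold change over both days was -0.02 (interval -0.14 to 0.11, edgeR adjusted p = 0.917). The promoter window had a log2 fold change of 0.00 (interval -0.27 to 0.27). A window 0.212 kb downstream, chr9:120092245-120092446, had the smallest p at this gene, with 1.73, 0.992, 1.23 and 1.36 CPM in WT and 1.98, 2.41, 2.39 and 2.01 in TIR1 mice on day 3, but 1.62, 0.988 and 1.80 against 1.39, 1.43 and 1.26 on day 7, where the groups overlapped. Over both days its log2 fold change was 0.43 (SE 0.21, adjusted p = 0.729).

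Ccr10 had the most negative locus estimate, from 2 windows only, both inside other genes and tied to Ccr10 by distance alone. The start site of Cntnap1 lies 826 bp from that of Ccr10. It summed to 7.36, 4.40, 5.45 and 5.08 CPM in WT and 5.44, 4.34, 3.56 and 5.01 in TIR1 mice on day 3, and to 4.84, 4.81 and 8.98 in WT and 2.85, 4.98 and 4.23 in TIR1 mice on day 7. WT replicate 3, a library of low count, was the high value on day 7, and the groups overlapped on both days. Over both days the Ccr10 locus had a log2 fold change of -0.41 (SE 0.185, interval -0.79 to -0.03, edgeR adjusted p = 0.323). On day 7 it was -0.54 (adjusted p = 0.660), or -0.27 without WT replicate 3 (adjusted p = 0.880), and at the Cntnap1 window it was -0.38 over both days (adjusted p = 0.683).

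The mucosal receptors had estimates near 0. Ccr6 had a log2 fold change of 0.03 over both days (interval -0.11 to 0.16, edgeR adjusted p = 0.885) and Ccr9 one of -0.04 (interval -0.21 to 0.13, adjusted p = 0.872). Ccr6 ranged from 38.2 to 49.3 CPM over 7 WT mice and from 38.1 to 50.3 over 7 TIR1 mice, and Ccr9 from 21.6 to 29.8 and from 21.5 to 27.9. At their most accessible windows the log2 fold changes were 0.07 (interval -0.25 to 0.38) for Ccr6 and 0.15 (interval -0.17 to 0.47) for Ccr9, and at the Ccr9 promoter it was -0.07 (interval -0.44 to 0.29). Their windows with the smallest p, chr17:8233257-8233458 at 2.68 kb upstream of Ccr6 and chr9:123767257-123767458 at 0.146 kb downstream of the Ccr9 start site, had log2 fold changes of -0.44 (adjusted p = 0.749) and -0.38 (adjusted p = 0.746).

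Of the receptors of inflamed tissue, Cxcr3 had the most positive locus estimate, with few counts behind it. It summed to 5.35, 5.54, 4.13 and 5.30 CPM in WT and 7.57, 5.55, 4.86 and 8.35 in TIR1 mice on day 3, and to 4.76, 4.44 and 2.71 in WT and 5.56, 3.69 and 6.08 in TIR1 mice on day 7. The highest value of each day was in a TIR1 mouse, but the groups overlapped on both days. Over both days the Cxcr3 locus had a log2 fold change of 0.33 (interval -0.02 to 0.68, edgeR adjusted p = 0.385). At its most accessible promoter window it was 0.28 (adjusted p = 0.845), and at the promoter window with the smallest p, chrX:101734239-101734440, it was 0.47 (SE 0.27, adjusted p = 0.791).

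Cxcr6 ranged from 22.7 to 26.4 CPM in WT and from 24.3 to 30.8 in TIR1 mice on day 3, and on day 7 it had 31.5, 21.3 and 30.5 CPM in WT and 23.4, 31.1 and 26.6 in TIR1 mice. Over both days the Cxcr6 locus had a log2 fold change of 0.08 (interval -0.11 to 0.27, edgeR adjusted p = 0.740). This value moved with single libraries, to 0.02 without WT replicate 2 of day 7, 0.03 without TIR1 replicate 3 of day 3, 0.04 without TIR1 replicate 2 of day 7, 0.12 without TIR1 replicate 1 of day 7 and 0.14 without WT replicate 1 of day 7. At the promoter window it was 0.15 (interval -0.16 to 0.46, adjusted p = 0.919). The Cxcr6 window with the smallest p lay 8.02 kb downstream inside Fyco1 (chr9:123814394-123814595), with a log2 fold change of 0.39 (SE 0.17, adjusted p = 0.684). TIR1 replicate 1 on day 3 had 5.75 CPM there, against 2.83 to 3.22 in the other TIR1 mice of that day.

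**Figure D5:**
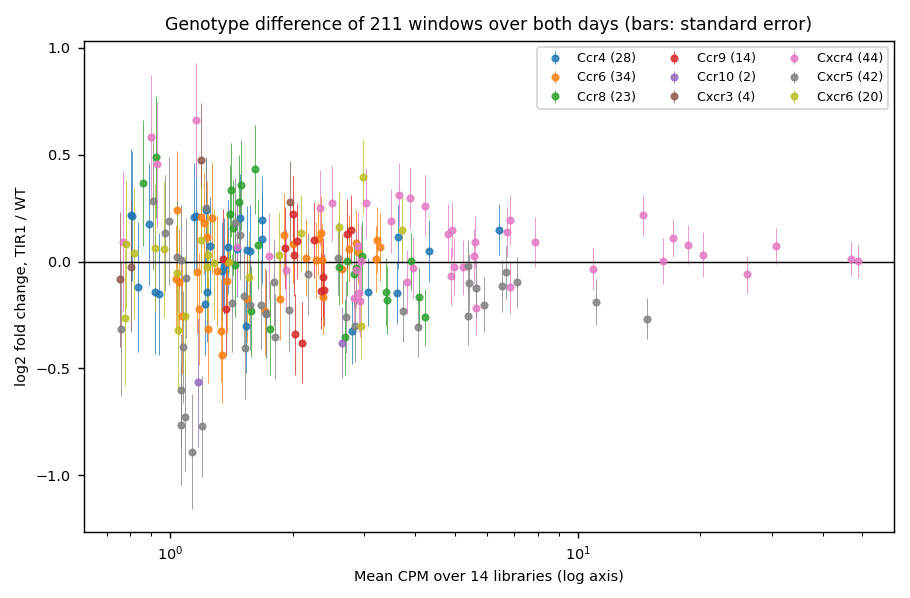
Log2 fold change between TIR1 and WT mice over both days (y axis, bars are standard errors) against mean CPM over 14 libraries (x axis, log scale) for the 211 receptor windows, coloured by gene. The estimates narrow from between -0.89 and 0.66 among weak windows to near 0 at the Cxcr4 windows of 46.7 and 48.6 CPM, and most Cxcr5 windows lie below 0.

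The precision differed between the loci. Within groups, the SD of the summed accessibility on the log2 scale was 0.08 for Cxcr4, 0.09 for Ccr4, between 0.11 and 0.19 for Ccr6, Ccr8, Cxcr5, Ccr9 and Cxcr6, and 0.35 and 0.37 for Cxcr3 and Ccr10. The 95% intervals over both days reached no further than 0.23 from 0 for Ccr4, Ccr6, Ccr8, Ccr9, Cxcr4 and Cxcr5, whereas those of Ccr10 and Cxcr3 reached -0.79 and 0.68. The sums of Ccr10 and Cxcr3 rest on 2 and 3 non-overlapping windows. The parts of depth, window number and variation between mice in their wide intervals were not tested.

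The next comparison asked whether the genotype difference itself differed between day 3 and day 7. The interaction was called for 0 of 211 receptor windows and 0 of 9 genes, with 0.0% of all windows and 0.0% of all genes called. At an unadjusted p under 0.05 there were 9 windows (4.27%, against 6.32% of all windows) and 0 genes (10.2% of all genes), and DESeq2, which also called none, gave 6 windows and 0 genes. Of the 210 receptor windows tested on both days, 99 (47.1%) had the same sign of the genotype estimate on day 3 and day 7, and over all 232548 such windows 50.0% did. The interaction estimates of the 9 loci ran from -0.25 (Ccr10, edgeR adjusted p = 0.841) to 0.18 (Cxcr5).

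In day 7 against day 3, with both genotypes in the fit, 0 of 211 receptor windows and 0 of 9 genes were called, where 0.00332% of all windows and 0.0% of all genes were. Day, duration of ligand and any processing that went with the day cannot be told apart here. At an unadjusted p under 0.05 there were 16 windows (7.58%, against 5.47%) and 1 gene, Ccr4 (5.63% of all genes), while DESeq2 called none and gave 13 windows and 2 genes, with 78 of the 211 windows left without an adjusted p. Ccr4 summed to a mean of 52.4 CPM in WT and 57.2 CPM in TIR1 mice on day 3 and to 48.2 and 47.6 CPM on day 7, a log2 fold change of -0.19 (SE 0.06, interval -0.31 to -0.07, edgeR adjusted p = 0.856). Cxcr4 had a log2 fold change of 0.05 between the days (interval -0.03 to 0.12), and Cxcr5 one of -0.06 (interval -0.17 to 0.05).

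Other genes of the same pathway were read out in the same fits. Of 14 other chemokine receptors, 12 had windows and 0 were called as genes in any of the 5 comparisons, and their median log2 fold change between TIR1 and WT was -0.14 on day 7 and -0.07 on day 3. Their summed accessibility on day 7 was 546, 541.5 and 602 CPM in WT and 509 to 516 CPM in TIR1 mice, which did not overlap. The value of 602 was that of WT replicate 3, a library of low count. Among all single genes, 14.8% had groups without overlap on day 7, and on day 3 the groups of this list overlapped. Of 14 ligands of the 9 receptors, 10 had windows and 0 were called as genes. A pair of overlapping windows of Ccl1, a ligand of Ccr8, was called over both days (chr11:82214431-82214717, 34.7 and 34.8 kb from its start site), with log2 fold changes of -0.73 and -0.74 (SE 0.14 for each, edgeR adjusted p = 0.0462 and 0.0429). The pair shares reads and made up the 2 windows called of 90 tested for the ligands, where 0.0112% of all windows were called.

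Of 17 symbols listed for genes that carry receptor signals, 16 had windows (all but Adrbk1) and 0 were called as genes. A window of Grk2, a kinase that desensitises such receptors, had a log2 fold change of -0.46 over both days (chr19:4300367-4300568, SE 0.09, edgeR adjusted p = 0.0429). It was the 1 window called of 501 tested for these genes, where 0.0112% of all windows were called. Summed over Treg cell markers, resting Treg cell markers (such as Ccr7 and Tcf7) and activated Treg cell markers (such as Prdm1 and Klrg1), accessibility overlapped between genotypes on both days, and none of their genes was called in any comparison.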

How the data were processed

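ATAC-seq was performed by the authors on sorted Treg cells of 14 mice, and the deposited values are raw read counts in 240778 windows of 201 bp. Per the labels and the study's methods, reads were aligned with Bowtie2 to mm10 (GRCm38), peaks were called with MACS2 and reads around summits were counted with featureCounts. Only windows at called peaks are counted, so chromatin without a peak is not represented, and overlapping windows share reads.

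Windows were assigned to the nearest RefSeq GRCm38.p6 protein-coding start site within 100 kb. The strand came from the RefSeq promoter table (17274 genes) or a GENCODE symbol (3914), and 443 of 21631 genes without a strand were left out. The receptor genes and the other gene lists were chosen with earlier results of these data known. The text names all 9 genes and, for each, the promoter window, the most accessible window, any window called, and the window with the smallest unadjusted p for genotype over both days. Other windows are said to be chosen after their values were seen, or belong to counts.

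Tests used the quasi-likelihood test of edgeR 4.0.16 (R 4.3.3) with TMM factors, a mean count of at least 10, and Benjamini-Hochberg adjustment over all windows or all genes at 0.05. Single-day comparisons were fitted on the libraries of that day, and the others on all 14. Genes were tested on the sum of windows that do not overlap. The fits were also run on simulated data, with changes set only in windows or genes of higher mean count. That run therefore does not show what the fits find in the weaker receptor windows. DESeq2 1.42.0, other normalizations, filters, distances, a replicate block, a term for the mouse name prefix and the omission of each library were alternatives. Replicates of a group differed by more than sampling noise (chi-square per degree of freedom 1.62 to 2.46 for the pairs compared). Each library was taken as 1 mouse, and the p-values set a difference against the spread between these libraries. In edgeR the estimate of that spread is moderated over all windows or all genes.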

Additional observations from a re-analysis of the deposited data

Results flagged for a closer look

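In the groups of 4 mice, 60 sets of values were examined for 1 mouse lying far from the other 3 (Dixon's test at 95%). Chance flags about 1 in 20 groups, or 3.0 here, and 4 were found. At the Cxcr5 locus, WT replicate 1 on day 3 had 160.1 summed CPM, against 125 to 129 in the other WT mice of that day. At the Ccr9 locus, TIR1 replicate 2 on day 3 had 21.5 summed CPM, against 24.6 to 25.1. At the Ccr10 window inside Cntnap1, TIR1 replicate 3 on day 3 had 1.64 CPM, against 2.57 to 2.70. At the Cxcr6 window 8.02 kb downstream inside Fyco1, TIR1 replicate 1 on day 3, the library with the lowest count, had 5.75 CPM, against 2.83 to 3.22. The cause was not tested.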

How the results depend on the processing

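In all 199 recomputed counts of receptor windows or genes called, over the 5 comparisons and every alternative run, the count was 0. The smallest adjusted p in any of them was 0.150 for windows and 0.121 for genes. Receptor windows at an unadjusted p under 0.05 ranged over the alternatives from 6 to 25 on day 7, from 3 to 18 on day 3 and from 6 to 22 for the combined days.

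Replicate numbers are shared between genotypes in the labels, but the deviations of same-numbered mice correlated only between -0.039 and 0.062. These values gave no sign of a pairing by number, but they cannot settle whether such mice shared more than the number. With the replicate block, 0 receptor windows and 0 genes were called in each comparison. The windows at an unadjusted p under 0.05 were then 14 on day 7, 13 on day 3 and 16 for the combined days, and the smallest adjusted p of a gene was 0.136, on day 3.

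Of 30 named log2 fold changes for genotype, 23 kept their direction under every alternative and 7, all near 0, turned. With each library left out in turn, the Cxcr4 window 22.7 kb upstream ranged from -0.0229 to 0.0424, the Ccr6 window 2.23 kb upstream from -0.0185 to 0.193, the Ccr8 promoter window from -0.0719 to 0.0814, the Ccr9 promoter window from -0.162 to 0.0439, the Ccr6 locus from -0.00477 to 0.0544 and the Ccr8 locus from -0.0408 to 0.0248. After adding the prefix of mouse names to the model, the Cxcr4 window was at -0.00505, the Ccr8 promoter window at -0.00327 and the Ccr6 locus at -0.00182. With the replicate block the Ccr8 promoter window was at -0.0014. With all windows summed, the Ccr8 locus was at 0.0128 and the Ccr9 locus at 0.0143. The cause was not tested.

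With each library left out in turn, the log2 fold change for genotype stayed between -0.146 and -0.0672 for the Cxcr5 locus, between 0.0204 and 0.138 for Cxcr6, between 0.0653 and 0.119 for Cxcr4 and between -0.467 and -0.284 for Ccr10. The sums of Ccr10 and Cxcr3 rest on 2 and 3 non-overlapping windows and had the widest intervals, and the part of depth in this was not tested.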
